A study of Mus musculus with 6 samples.

Results

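The genes described here are 10 lysosomal genes of mouse blood progenitors, chosen by name: 8 cathepsins (Ctsa, Ctsb, Ctsc, Ctsd, Ctsh, Ctsl, Ctss and Ctsz), the cathepsin inhibitor cystatin C (Cst3) and the lysosomal membrane protein Lamp1. All 10 were present among the 12161 genes of the deposited expression table. RNA came from wild-type C57BL/6 bone marrow LSK cells, which are lineage-negative, Sca1-positive and Kit-positive and include the blood stem cells. Both groups were infected with a retrovirus, grown for 2 days in StemPro-34 medium, and sorted for GFP. Flt3 ligand and SCF were added at 50 ng/mL each; interleukin 6, and a factor spelled mL-3 in the labels, at 10 ng/mL each. The control group carried MIG, the empty GFP vector, and the other carried MIG-Hhex, which adds the homeobox factor Hhex; each had 3 libraries, named by replicate as WT3, WT691 and WT703. Added Hhex is driven by the virus, so its level is not that of the cell's own gene, and no source used here states the age of the mice. The comparison asks what MIG-Hhex changes relative to MIG in these genes.

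Lysosomes are acid compartments in which proteins taken up from outside, or delivered by autophagy, are broken down. Cathepsins are their proteases. They are made as inactive precursors, carried from the Golgi by mannose 6-phosphate receptors and activated by cleavage at low pH. Most belong to the papain family, whose active site is a cysteine, whereas cathepsin D uses aspartates and cathepsin A is a serine carboxypeptidase. Cystatin C is secreted and blocks papain-family cathepsins. In myeloid cells, cathepsin C activates the serine proteases of the granules, and in antigen-presenting cells cathepsin S trims the invariant chain of MHC class II. Many lysosomal genes are bound by the MiT/TFE factors, among them TFEB.

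Values are the authors' deposited log2 values, and they behave as a level per unit of gene length. Hhex was higher in every MIG-Hhex library, between 7.61 and 9.34, than in the MIG libraries, between 5.05 and 5.18. All 11 LSK cell markers listed were measured, Kit among them at a MIG mean of 4.73 ± 0.12 (SD, n = 3). Of these 11, 0 rose and 1 fell, Meis1, against 9.44% and 8.52% of all genes. With the replicate block described below 3 were lower, against 12.1% of all genes. The median difference was −0.19. Replicate WT3 was sequenced on flow cell C3RJFACXX and the 4 other libraries on flow cell C5LWPANXX. The series' design text calls the samples biological replicates, and nothing read here says whether cells of several mice were pooled, so p-values measure the spread between these samples. Fewer cells of a type and less RNA per cell cannot be told apart in these bulk libraries.

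Differences between MIG-Hhex and MIG were small in all 10 genes. In the fit with a term for the flow cell, 0 of the 10 genes passed the threshold (limma, Benjamini-Hochberg adjusted over all genes), against 18% of all genes. Of the 10, 2 had an unadjusted p under 0.05, Ctsb and Ctsd, as did 4170 of all 12161 genes. The 95% interval of the difference lay inside a 2-fold change in either direction for all 10 genes, as it did for 81% of all genes. The small differences leaned upward. The median over the 10 genes was 0.17 on the log2 scale, against −0.02 over all genes, and the median absolute difference was 0.19, against 0.17.

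Comparing each MIG-Hhex library with the MIG library of the same replicate name narrowed the error. With the replicate name as a block, the median standard error of the 10 genes was 0.057, against 0.132 with the flow cell term. In this fit Ctsb, Ctss and Ctsz were higher and Lamp1 was lower, so 4 of 10 were called against 24.5% of all genes, 3 higher against 12.4% and 1 lower against 12.1%. Without replicate WT691 or without replicate WT703 the same fit called 0 genes higher and 0 lower. Without replicate WT3 it called 4 higher and 1 lower. Leaving out a pair leaves a single residual degree of freedom. The share of all genes called in these runs is not given. A general loss of calls therefore cannot be told apart from one in these 10 genes. In all 3 pairs 7 genes were higher and 1 was lower, where 27.5% and 32.3% of all genes were.

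**Figure D1:**
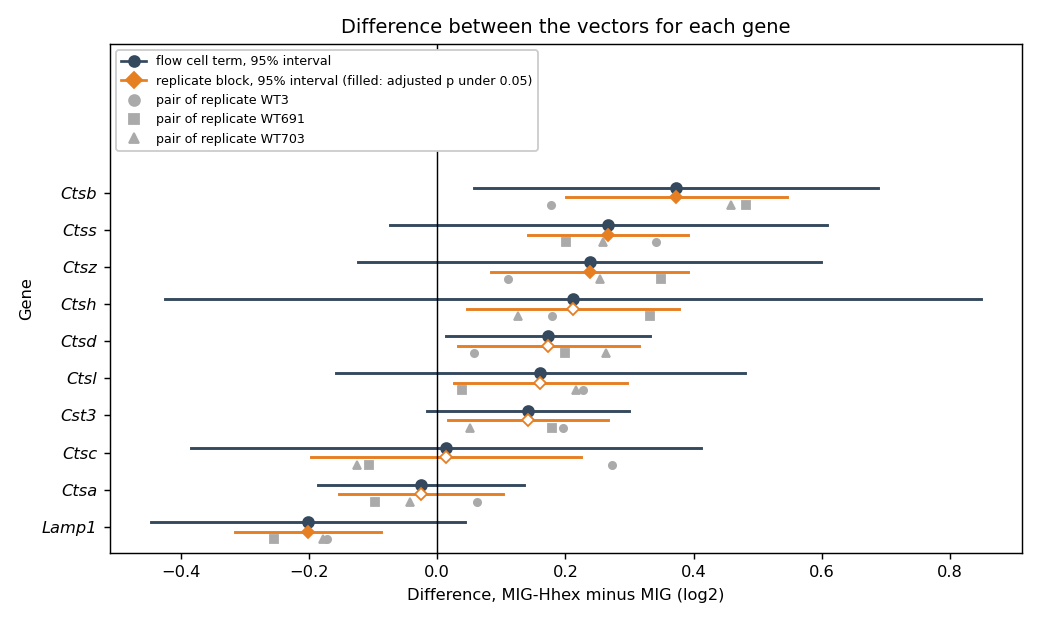
Difference between MIG-Hhex and MIG on the log2 scale for each gene, with 95% intervals from the fit with a flow cell term (circles) and from the fit with the replicate block (diamonds, filled where the adjusted p is under 0.05); gray symbols are the 3 pairs. Lamp1 lies left of 0 in each pair, Ctsa and Ctsc straddle 0, and the other 7 genes lie right of 0 in each pair.

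Cathepsin B, an abundant lysosomal protease that cuts both inside proteins and from their carboxyl end, had the largest difference. Ctsb (Entrez 13030, chromosome 14 from 63122462 to 63145923 in GRCm38) measured 6.19, 6.00 and 5.66 in the MIG libraries of replicates WT3, WT691 and WT703, and 6.37, 6.48 and 6.12 with MIG-Hhex. Each MIG-Hhex library was above its own MIG partner, although the lowest MIG-Hhex value, in WT703, lay below the MIG value of WT3. The difference was 0.37 (SE 0.13, limma adjusted p = 0.0989), and with the replicate block it passed the threshold (adjusted p = 0.0155; 95% interval 1.15-fold to 1.46-fold). The 3 pairs gave 0.18, 0.48 and 0.46. Without the MIG-Hhex library of WT691 the difference was 0.24.

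Cathepsin S is the protease that trims the invariant chain and stays active near neutral pH. Ctss (Entrez 13040, chromosome 3 from 95526786 to 95556405) had 5.25, 5.21 and 4.77 with MIG and 5.59, 5.41 and 5.03 with MIG-Hhex. The pairs moved by similar amounts, 0.34, 0.20 and 0.26, while the groups overlapped because both WT703 libraries were low. The difference of 0.27 (SE 0.14) had a limma adjusted p of 0.236 and of 0.016 with the replicate block (95% interval 1.10-fold to 1.31-fold). Removing a MIG library moved it to 0.15 (WT703) or 0.40 (WT691).

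Cathepsin Z, a carboxypeptidase also called cathepsin X, was the most highly expressed of the 10. Ctsz (Entrez 64138, chromosome 2 from 174427494 to 174439039) lay at 8.92, 8.37 and 7.99 with MIG and at 9.03, 8.72 and 8.25 with MIG-Hhex. The libraries fell in the order WT3, WT691, WT703 in both groups, and the spread between replicate names was wider than the difference between vectors. That difference was 0.24 (SE 0.15, limma adjusted p = 0.307; 0.0414 with the replicate block). Without the MIG-Hhex library of WT691 it was 0.085, and without that of WT703 0.35. Its call with the block was absent once the trend with GC content was removed as well (limma adjusted p = 0.176).

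Cathepsins L, H and C, the remaining papain-family members here, did not pass in either fit. Ctsl, an endopeptidase that is broadly expressed (Entrez 13039, chromosome 13 from 64361890 to 64370772), was 5.33, 6.38 and 5.92 with MIG and 5.56, 6.42 and 6.13 with MIG-Hhex. It was the single gene of the 10 that was lower in the WT3 libraries than in the other 4. Its difference was 0.16 (SE 0.13, limma adjusted p = 0.434; 0.0834 with the replicate block), and with the GC trend removed as well it passed (adjusted p = 0.0193). That last fit called 3 of the 10 higher (Ctsb, Ctsl and Ctss) and 1 lower (Lamp1), against 24.8% of the genes tested, 12.8% higher and 12% lower.

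Ctsh, an aminopeptidase (Entrez 13036, chromosome 9 from 90054267 to 90076095), varied most among libraries. It stood at 5.12, 3.48 and 2.78 with MIG and at 5.29, 3.81 and 2.90 with MIG-Hhex. Both WT3 libraries were more than 1 log2 unit above all others, and the distance between replicates far exceeded that between vectors. The pair differences of 0.18, 0.33 and 0.13 averaged 0.21 (SE 0.27, limma adjusted p = 0.615; 0.0681 with the replicate block).

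Ctsc, the activator of granule serine proteases (Entrez 13032, chromosome 7 from 88278024 to 88315861), had 7.52, 7.13 and 6.69 with MIG and 7.79, 7.02 and 6.57 with MIG-Hhex. The pair of WT3 went up by 0.27, and those of WT691 and WT703 went the other way, −0.11 and −0.13. The mean difference was 0.01, with a 95% interval from −0.38 to 0.41 (limma adjusted p = 0.963). The difference of the vector effect between the flow cells was 0.39 (SE 0.36, limma interaction, adjusted p = 0.986). Of the 10 genes, 0 passed that interaction test and 0 had an unadjusted interaction p under 0.05. Over all genes 0 passed (0%), and 600 had such a p.

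Of the 2 members outside the papain family, the aspartic protease cathepsin D was the steadier. Ctsd (Entrez 13033, chromosome 7 from 142375910 to 142387827) was 8.05, 7.98 and 7.87 with MIG and 8.11, 8.18 and 8.14 with MIG-Hhex. It was the single gene of the 10 in which the groups did not overlap; 21.2% of all genes had groups that did not overlap. The difference was nevertheless small, 0.17 (SE 0.07, limma adjusted p = 0.121; 0.0768 with the replicate block). It was 0.078 with the GC trend removed as well.

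Cathepsin A also protects lysosomal sialidase and beta-galactosidase from degradation. Ctsa (Entrez 19025, chromosome 2 from 164832872 to 164841032) was 5.58, 5.30 and 5.15 with MIG and 5.64, 5.21 and 5.11 with MIG-Hhex. Its groups coincided, with a difference of −0.03 and the 95% interval from −0.19 to 0.13 (limma adjusted p = 0.82).

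Cystatin C differed mainly between replicates. Cst3 (Entrez 13010, chromosome 2 from 148871722 to 148875512) was 8.14, 7.001 and 6.95 with MIG and 8.33, 7.18 and 6.997 with MIG-Hhex. The WT3 libraries stood above the other 4, and within each pair MIG-Hhex was slightly higher. The difference was 0.14 (SE 0.07, limma adjusted p = 0.184; 0.093 with the replicate block). It was 0.03 with the GC trend removed as well.

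Lamp1, a heavily glycosylated protein that lines the lysosomal membrane, was the single gene of the 10 that was lower in all 3 pairs. Its gene (Entrez 16783, chromosome 8 from 13159161 to 13175338) measured 7.93, 7.61 and 7.30 with MIG and 7.75, 7.36 and 7.12 with MIG-Hhex. The pair differences were −0.17, −0.25 and −0.18, although the groups overlapped. The difference was −0.20 (SE 0.10, limma adjusted p = 0.214), and with the replicate block Lamp1 was called lower (adjusted p = 0.0276, 95% interval −0.32 to −0.09). Removing a MIG library moved the difference to −0.11 (WT691) or −0.29 (WT703).

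**Figure D2:**
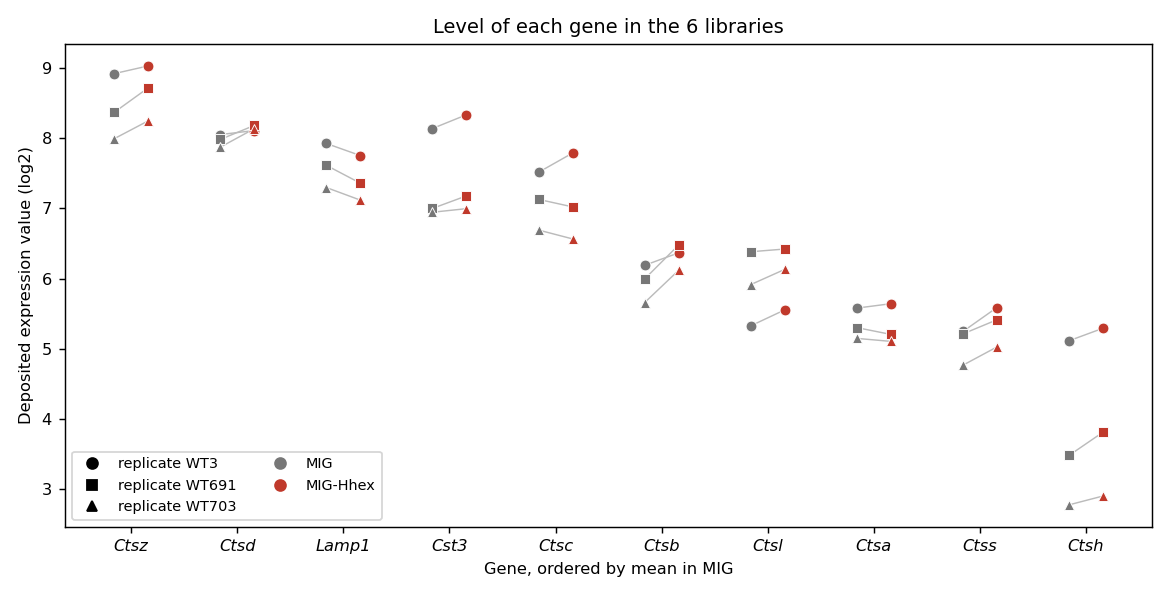
Deposited log2 value of each gene in the 6 libraries, ordered by the MIG mean; gray symbols are MIG, red symbols MIG-Hhex, symbol shapes are the replicate names and lines join libraries of one name. Ctsh and Cst3 show the WT3 libraries far above the others, and Ctsl shows them below.

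Expression spanned a wide range within the family. In MIG the order was Ctsz, Ctsd, Lamp1, Cst3, Ctsc, Ctsb, Ctsl, Ctsa, Ctss and Ctsh, from a mean of 8.43 ± 0.47 for Ctsz to 3.79 ± 1.20 for Ctsh (SD, n = 3). The neighbours Lamp1 and Cst3, Cst3 and Ctsc, Ctsb and Ctsl, and Ctsl and Ctsa changed places in at least 1 MIG library and so were not separated beyond their spread. With MIG-Hhex the means of Cst3 and Lamp1, and of Ctss and Ctsa, stood in the other order. Neither is a separation beyond the spread: Cst3 was above Lamp1 in WT3 and below it in WT691 and WT703 with either vector, and Ctss was above Ctsa in 1 of 3 MIG-Hhex libraries. Even the lowest of the 10 by mean over the 6 libraries lay above 55.5% of all genes, and the highest above 99%.

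Differences between flow cells were larger than those between vectors for 8 of the 10 genes. The share of all genes for which this held is not given. Over all genes the median absolute difference was likewise larger between flow cells, 0.322, than between vectors, 0.171. The mean over the WT3 libraries exceeded that of the other 4 by 1.96 for Ctsh, 1.21 for Cst3 and 0.80 for Ctsc, and was 0.77 lower for Ctsl (−0.77), against a median absolute difference of 0.322 over all genes. For Ctsh, 98.4% of all genes had a smaller difference of this kind. Only 1 replicate was sequenced on flow cell C3RJFACXX, so flow cell and replicate cannot be told apart, and no test was made. Among the genes of the whole table, the profiles nearest to that of Ctsh over the 6 libraries were those of Ly6c2, Hpn and Trem2, with root mean square differences of centred log2 values of 0.143, 0.157 and 0.188. Those nearest to Cst3 were Fkbp1b, Slpi and Pgp (0.0685, 0.0903 and 0.101). Ly6c2, a surface antigen of classical monocytes, was 9.15, 7.48 and 6.97 with MIG and 9.38, 7.91 and 7.33 with MIG-Hhex.

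Among markers of monocytes and macrophages, the higher summed level in WT3 came from Ly6c2. Over the 13 measured of 14 listed markers, the linear level was 701 in the MIG library of WT3 and 796 in its MIG-Hhex library, and between 267 and 384.5 in the other 4. Ly6c2 made up 81.2% and 83.5% of it in the WT3 libraries and 45.7% to 62.5% in the others. Without Ly6c2, the other 12 markers summed to 131.8, 166.2 and 149.3 with MIG and 131.2, 144.3 and 105.3 with MIG-Hhex, in WT3, WT691 and WT703, so WT3 was lowest with MIG and between the others with MIG-Hhex. Between vectors, 4 of the 13 rose and 2 fell (7 and 2 with the replicate block), with a median of 0.38; their part in the differences of the cathepsins was not tested. The summed level of neutrophil markers did not overlap between vectors. Over 8 measured genes it was 1511 to 2851.5 with MIG and 3421 to 4574 with MIG-Hhex. Of the 8, 7 rose, against 9.44% of all genes.

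The level of each cathepsin relative to Cst3 was compared within libraries, where a library-wide scale cancels. Cystatin C blocks papain-family cathepsins, so for Ctsa and Ctsd, outside that family, the value is not a balance with an inhibitor. With Cst3 subtracted, the largest difference between vectors was 0.23 for Ctsb, and Ctsa stood at −0.17. Ctss was higher relative to Cst3 in all 3 pairs (0.15, 0.02 and 0.21), and Ctsa was lower in all 3. Over the 8 cathepsins, the exact two-sided permutation test gave p from 0.5 to 0.9. It shuffled all 6 libraries and did not use the replicate names. With 3 libraries against 3 its smallest possible p is 0.1, so it could not have made a call. The groups overlapped for all 8.

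**Figure D3:**
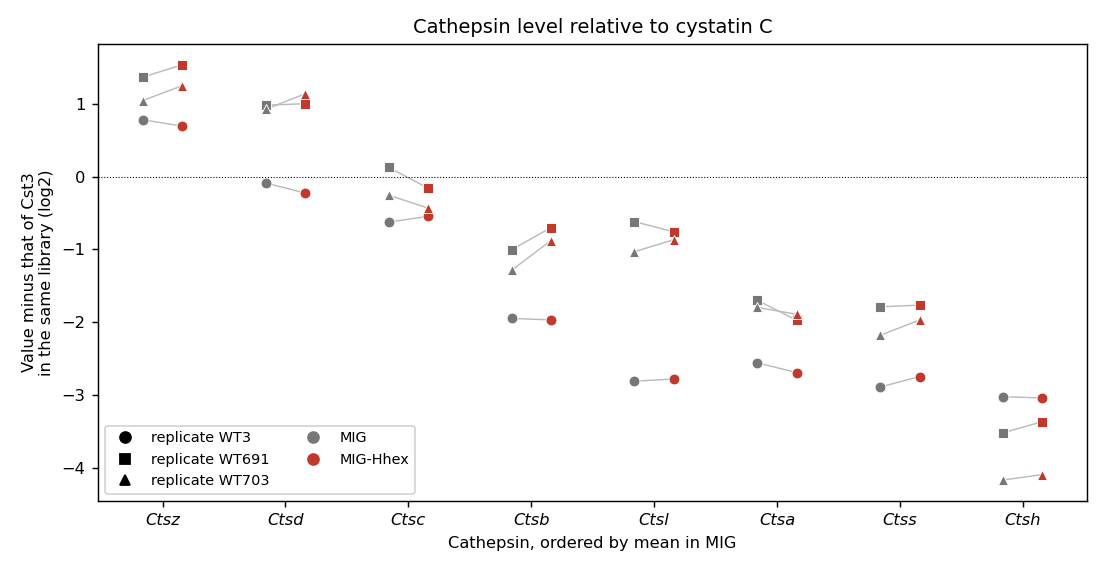
Log2 value of each cathepsin minus that of Cst3 in the same library, with MIG in gray and MIG-Hhex in red, shapes for replicate names and lines joining libraries of one name. The WT3 libraries lie lowest for every cathepsin except Ctsh, and the lines between vectors are short beside that spread.

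Promoter sequences show how unlike the genes are around their start sites. The letters CACGTG are the core of the E-box read by the MiT/TFE factors. RefSeq windows of GRCm38.p6, from 250 bases before to 50 after a start, were at hand for 8 of the 10 genes; Ctsb and Ctsh had none. The stretches below show the CACGTG matches of Lamp1, Ctsd and Ctsa in capitals, and, for contrast in sequence, the same region of Ctss and Ctsz. These hold no match in their windows, and neither do Cst3 and Ctsc, which are not shown. Each is written 5′ to 3′ on the strand of its gene.
Lamp1, chr8:13159061-13159160, plus strand: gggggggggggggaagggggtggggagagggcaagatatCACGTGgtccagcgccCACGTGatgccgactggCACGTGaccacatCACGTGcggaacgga
Ctsd, chr7:142388056-142388077, minus strand: tccccCACGTGacctgtatcca
Ctsd, chr7:142387908-142387937, minus strand: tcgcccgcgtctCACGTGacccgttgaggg
Ctsa, chr2:164833757-164833786, plus strand: ctgtCACGTGatgcagatgctCACGTGacc
Ctss, chr3:95526686-95526785, plus strand: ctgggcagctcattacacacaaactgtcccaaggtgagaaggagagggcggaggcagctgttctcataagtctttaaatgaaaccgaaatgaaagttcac
Ctsz, chr2:174439040-174439139, minus strand: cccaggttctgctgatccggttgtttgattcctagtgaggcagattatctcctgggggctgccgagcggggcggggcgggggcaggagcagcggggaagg

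Lamp1 held CACGTG 4 times, with first bases 61, 45, 28 and 15 before its start (−61, −45, −28 and −15). Among all 32851 windows, 7.15% held the core at least once, 0.594% at least 2 times and 0.0244%, 8 windows, at least 4 times. Ctsd held it at −245 and −98. Ctsa held it at −12 and 6 in the second of its 2 windows, whose start lies downstream of the outermost one. The printed stretch of Ctsd around −98 and that of Ctsa lie wholly in annotated exons. Ctsl held it once, at −236, in a window whose start lies inside the gene. The longer TCACGTG, searched on both strands and containing the core, was found in Lamp1, Ctsd and Ctsa and in 3.77% of windows. Such matches describe the letters and do not show binding.

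The wider set of lysosomal genes moved in both directions. Over 11 lists of lysosomal and related genes, 41 of 232 measured genes rose and 20 fell, together 26.3%, against 18% of all genes (9.44% higher and 8.52% lower). With the replicate block 60 were higher and 26 lower, together 37.1%, against 24.5% of all genes, and beside 4 of the 10 genes above. No difference between the lists and those 10 genes was tested. Without replicate WT703, 17 rose and 8 fell; without WT691, 28 and 11; and without WT3, 25 and 15. The share of all genes called with a replicate removed is not given, here or for the single lists below. These lists were drawn up with earlier results of these data known.

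**Figure D4:**
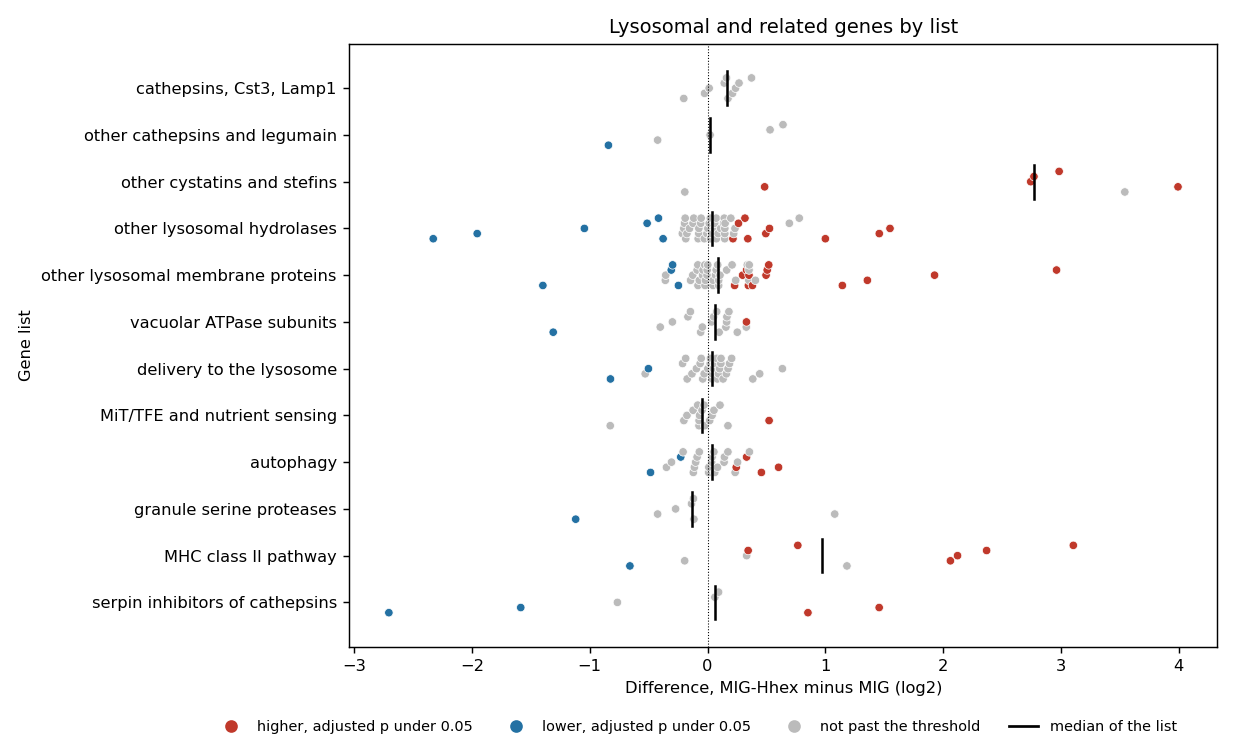
Difference between MIG-Hhex and MIG on the log2 scale for every measured gene of the 11 lists and of the 10 cathepsin, Cst3 and Lamp1 genes (top row); each point is a gene, red or blue where it passed the threshold of the fit with a flow cell term, and the black bar is the median of the list. The top row lies between −0.20 and 0.37, while stefins reach 3.99 and Serpinb8, below 0 in all 6 libraries, lies at −2.70.

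Among the other cathepsins and legumain, 5 of 7 were measured, 0 rose and 1 fell. That was Lgmn, an asparaginyl endopeptidase that processes cathepsins, from 3.22 ± 0.34 to 2.38 ± 0.32 (SD, n = 3), a difference of −0.84 (SE 0.09, limma adjusted p = 0.0027). It fell in each pair, and its groups did not overlap. Ctse, an aspartic protease, was at 5.72 and 6.58 in the WT3 libraries and between 1.12 and 1.72 in the other 4; its difference of 0.53 passed with the replicate block alone (limma adjusted p = 0.0404; 0.0619 with the flow cell term).

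Cathepsin inhibitors differed among families. Of 7 measured other cystatins and stefins, 5 rose and 0 fell, with a median of 2.77. BC100530 and Stfa2l1, members of the stefin A cluster, rose by 3.99 (SE 1.02) and 2.98 (SE 0.29) from MIG means of −0.29 and −1.15. Without replicate WT691, 3 genes of this list rose, and without WT703, 1. Stefin A genes are close copies, and how reads were divided among them is not known, so each value is uncertain. Stefin B, encoded by Cstb and found in the cytosol, rose by 0.48 (SE 0.11, limma adjusted p = 0.0283). Cst7, cystatin F, an intracellular inhibitor of cathepsin C, had −0.19 and was called lower with the replicate block alone (limma adjusted p = 0.0419). Of 7 serpins listed as inhibitors of lysosomal and granule proteases, Serpina3f and Serpina3g rose by 1.46 and 0.85, while Serpinb8 and Serpinb1a fell by 2.70 and 1.59, with a median of 0.06 over the 7. Serpinb8 was below 0 in all 6 libraries, so its fall is between low levels.

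Of 53 measured hydrolases and their activators, 9 rose and 6 fell, with a median of 0.03. Without WT3, WT691 or WT703, 5, 4 and 4 rose and 5, 3 and 3 fell; the replicate block gave 13 higher and 8 lower. Plbd1, a phospholipase B-like protein, rose by 1.55 (SE 0.24) and Acp5, the tartrate-resistant acid phosphatase, by 1.46 (SE 0.35). In the other direction, Galc, the galactosylceramidase, fell 5.02-fold, from 2.63 ± 0.28 to 0.31 ± 0.42 (SD, n = 3; limma adjusted p = 0.0027). Smpd1, acid sphingomyelinase, fell 3.88-fold, from 3.04 ± 0.19 to 1.09 ± 0.54 (limma adjusted p = 0.0016). Both falls were present in each pair, and neither gene had overlapping groups.

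Lysosomal membrane proteins other than Lamp1 gave 13 rises and 4 falls among 49 measured, with a median of 0.09. Removing WT3, WT691 or WT703 left 7, 10 and 5 rises and 2, 1 and 1 falls, and the replicate block gave 17 higher and 4 lower. Slc15a3, a peptide and histidine transporter, rose 7.79-fold (limma adjusted p = 0.00483, SE of the log2 difference 0.37), and Slc11a1, the phagosomal metal transporter NRAMP1, 3.80-fold (SE 0.22). Laptm4b fell 2.63-fold and Scarb2, the receptor that carries glucocerebrosidase to the lysosome, fell by 0.31. The summed neutrophil markers given above moved with these rises, and their part in them was not tested.

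The proton pump and the delivery route showed few calls with the flow cell term, which called 18% of all genes (9.44% higher and 8.52% lower). The replicate block called 24.5% of all genes (12.4% higher and 12.1% lower). Of 18 measured subunits of the vacuolar ATPase, which acidifies the lysosome, Atp6v0a2 rose by 0.33 and Atp6v0a1 fell by 1.31 (SE 0.12, limma adjusted p = 0.00212); with the replicate block 4 were higher and 2 lower. Of 33 genes for delivery to the lysosome, 0 rose and 2 fell, and the block gave 4 higher and 2 lower. Gnptab, which starts the mannose 6-phosphate tag, fell by 0.50 (SE 0.07), and Ap1s2, an adaptor subunit, by 0.82.

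Among 17 measured MiT/TFE factors and nutrient-sensing genes, Tfeb was the single call. It rose from 2.85 ± 0.24 to 3.38 ± 0.18 (SD, n = 3), by 0.52 (SE 0.08, limma adjusted p = 0.00802), with no overlap between groups. Its relatives Tfe3 and Mitf differed by 0.17 and −0.17 and did not pass in either fit. Tfec had −0.83 and was called lower with the replicate block alone (limma adjusted p = 0.0139; 0.0741 with the flow cell term). Of 27 autophagy genes, 4 rose and 2 fell, but at most 1 rose and 1 fell with WT3 or WT691 removed, and 0 with WT703 removed; the replicate block gave 5 higher and 2 lower. The largest rises were Optn, a receptor for ubiquitin-marked cargo, by 0.60, and Atg9a, a lipid scramblase, by 0.46, and the falls were Atg12 and Atg3, of the conjugation machinery, by 0.48 and 0.23.

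Clients of the cathepsins were read beside them. Of 7 measured granule serine proteases, most of which cathepsin C activates, 0 rose and 1 fell, Mcpt8, a basophil protease, by 1.12 (SE 0.11). The summed level of 6 measured mast cell and basophil markers was 111 to 218 with MIG and 67.1 to 130 with MIG-Hhex, and its part in that fall was not tested. Elane, Prtn3 and Ctsg, at MIG means of 10.11, 10.35 and 10.42, did not pass. In the MHC class II pathway, in which Ctss acts, 6 of 10 rose and 1 fell, and 4 to 5 rose and 0 fell with a replicate removed; the replicate block gave 8 higher and 1 lower. Cd74, the invariant chain that Ctss cleaves, rose by 2.37 (SE 0.31, limma adjusted p = 0.00523), against a Ctss difference of 0.27, and Ciita rose by 3.10, though from −4.12 to −1.02 and so below 0 in all 6 libraries; H2-Oa fell by 0.66. Of 9 dendritic cell markers 5 were measured and 3 rose. Their summed level was 97.6 to 171 with MIG and 142 to 175 with MIG-Hhex, the defining marker Zbtb46 was below 0 in all 6 libraries, and their part in the class II rises was not tested.

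Of the 29 list genes named here that passed, 14 still passed in each of 9 repeat fits, with 1 library or 1 replicate name removed. The other 15 missed the threshold in at least 1 of these: BC100530, Cstb, Acp5, Scarb2, Atp6v0a2, Ap1s2, Gnptab, Tfeb, Atg9a, Optn, Atg12, Atg3, H2-Oa, Serpina3f and Serpinb8 (limma adjusted p up to 0.183, for BC100530). Optn, Atg3 and H2-Oa missed it in all 9 fits and Atp6v0a2 in 8. BC100530, Cstb, Scarb2, Ap1s2 and Atg9a missed it in 6, and Acp5 in 5. Tfeb, Gnptab, Atg12 and Serpinb8 missed it in 1 fit, without replicate WT703 (limma adjusted p 0.0629 for Tfeb and 0.0527 for Gnptab). Serpina3f missed it in 1, without the MIG library of WT703.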

How the data were processed

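Messenger RNA of 6 libraries was sequenced. The deposited table holds normalized log2 values per gene and library; the submitters' processing notes name build mm10 and the tools Subread, featureCounts, edgeR and limma. No source used here states their versions, the strand setting or the normalization. Multiplied by the longest GENCODE transcript in kilobases, the unlogged values summed to between 1198991 and 1235877 per library, near what an RPKM scale would give. Counts and depth are unknown. Group was read from the vector label and replicate name from the titles.

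All 12161 genes were fitted with limma 3.58.1 in R 4.3.3, with terms for flow cell and vector and a mean-variance trend; p-values are two-sided, Benjamini-Hochberg adjusted over all genes, with a threshold of 0.05. The fit with the flow cell term was tested on simulated data in which each library had independent noise. The simulation held no likeness between same-named libraries beyond the flow cell, and the fit with the replicate block was not tested on it. Replicate names pair the libraries: deviations from group means correlated at 0.742, 0.585 and 0.656 between same-named libraries. The fit with the replicate name as a block is therefore given beside results whose call or count it changes. Members, lists and tests were chosen with earlier results of these data known. Named list genes are up to 2 rises and 2 falls of the largest size per list, with fixed additions; BC100530, a stefin A gene with a clone-based symbol, was kept, and Cst7 and Ctse were added after their values were seen.

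In the GENCODE annotation, exons of other genes cover 34.4% of the exonic bases of Ctsd (Gm49369), 32.9% of Ctsl (Gm47123, antisense, and Gm49230), 17.4% of Ctsa (Neurl2 and Pltp), 12.8% of Ctsb (Fdft1) and 9.31% of Lamp1 (Grtp1). How such reads were assigned is unknown, so the values of these 5 genes are less certain.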

Additional observations from a re-analysis of the deposited data

How the results depend on the processing

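For the 10 genes, 0 were called higher and 0 lower in each of the fits with a flow cell term or none, whatever the scaling, filter or left-out library. The replicate block gave 3 higher and 1 lower, also on quantile normalized values (chosen after seeing the data). With the GC trend removed as well it gave 3 and 1, with Ctsl in place of Ctsz. That fit called 24.8% of the 11740 genes with a known transcript GC content. Over the runs of the block that left out a replicate, also chosen after seeing the data, the counts were 0 to 4 higher and 0 to 1 lower. Of 220 values for single genes, 12 changed sign, but many of the 220 could not. Dropping the flow cell term, adding the block, or changing the trend, filter or floor left each estimate unchanged. The runs lacking either WT3 library, and flow cell C5LWPANXX alone, all repeated the same estimate. With a library or replicate left out, Ctsa ranged from −0.0696 to 0.031 (0.0102 with the replicate block without WT691), Ctsc from −0.12 to 0.18 and Ctsh from −0.0527, without the MIG-Hhex library of WT691, to 0.47. The other 7 kept their sign: Ctsb from 0.24 to 0.47, Ctsd 0.13 to 0.23, Ctsl 0.037 to 0.30, Ctss 0.15 to 0.40, Ctsz 0.085 to 0.35, Cst3 0.097 to 0.20 and Lamp1 −0.29 to −0.11. With the GC trend removed and the replicate block, Ctsa was −0.099, Ctsc 0.13, Ctsd 0.078, Ctsl 0.25, Ctsz 0.13 and Cst3 0.03. Ctsc was −0.12 on flow cell C5LWPANXX alone. Relative to Cst3, Ctsd ranged from −0.0591 to 0.12 and Ctsl from −0.0543 to 0.0985, negative without a WT703 library. Over the 11 lists, 41 genes rose and 20 fell; without a flow cell term 7 rose and 4 fell, and without a replicate 17 to 28 rose and 8 to 15 fell. For the runs without a flow cell term or without a replicate, the share of all genes called is not given. The causes were not tested. The depth of the libraries is unknown, and their number, 3 a group, limits what differences near 0.2 can show.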
